A study of Mus musculus with 12 samples.

Results

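Genes for the subunits of voltage-gated sodium channels, voltage-gated calcium channels and the hyperpolarization-activated pacemaker channels were taken by name from a table of mouse heart cells: every row named Scn with a number and a or b, Cacna1 with a letter, Cacna2d, Cacnb, Cacng or Hcn with a number. The rule gave 43 of 23423 genes, of which 13 were sodium, 26 calcium and 4 pacemaker channel genes. Of these, 27 reached 1 CPM (1 read per 1000000 reads assigned to genes) in at least 2 of 12 libraries and are described by level, and 16 did not. Scn2a is listed under an older symbol that the rule does not take, and is not included.

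Polyadenylated RNA came from 6 groups of 2 libraries, all from CD1 mice at postnatal day 1.5. Fresh cardiac fibroblasts had been selected on magnetic beads for the surface protein Thy1, and fresh cardiomyocytes came from a commercial isolation kit for newborn hearts. The remaining 4 groups were such fibroblasts in culture, lysed at day 3. They carried a control retrovirus (lacZ in the titles, empty vector in other labels) or a retrovirus for 3 transcription factors of the developing heart, Mef2c, Gata4 and Tbx5 (called MGT). In 2 of the groups a lentivirus was added to MGT, whose hairpin RNA either had no target (called shNT) or was directed at Ptbp1, a repressor of splicing (called shPtbp1). All 3 MGT groups share the factors, and both hairpin groups share a second virus. One source label of shPtbp1 replicate 2 names Ptbp2. The labels do not say that replicates were separate cultures or litters, and the p-values therefore cover only the variation among these libraries, which may be technical.

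A voltage-gated sodium or calcium channel is built on 1 large pore-forming alpha subunit that opens on depolarization. Sodium channels carry the fast upstroke of the action potential in working heart muscle, L-type calcium channels carry the plateau current that triggers contraction, T-type calcium channels open near rest and are prominent in the fetal heart and the nodes, and pacemaker channels pass the current that drives slow depolarization in the sinoatrial node. Beta, alpha2delta and gamma subunits do not form the pore but set trafficking, surface density and gating. Ptbp1 is known for its control of alternative exons, including those of calcium channel genes, and gene-level counts do not show exon choice.

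Depth was 49320858 to 94005212 assigned reads per library. Levels are CPM divided by a library factor (scaled CPM), given as replicate 1 and replicate 2. A fold change is a difference of mean log2(scaled CPM + 0.5) with its standard error, which understates changes of low genes, and adjusted p comes from limma over 13977 genes. Ptbp1 was 81.1 and 78.5 with shPtbp1 and 359.8 and 365 with shNT, low in both libraries of its hairpin group. Tbx5 was 1770.4 and 1847 with MGT, 645 and 678 in control and 6.94 and 7.52 in fresh fibroblasts, so control cultures already had it high. Neither fresh preparation was pure by its markers. The summed level of 6 cardiomyocyte markers was 1036 to 1053 in fresh fibroblasts and 9227 to 9719.6 in cardiomyocytes, and that of 6 fibroblast markers was 26891 to 27663 and 14381 to 14499. In bulk RNA, fewer cells of a type and less RNA per cell cannot be told apart.

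More of these genes were called between cultured and fresh fibroblasts than in any other of the 5 comparisons. Against fresh fibroblasts, all 27 tested genes were called in control cultures, 6 higher and 21 lower (43.5% and 43.4% of all genes tested were higher and lower), with a median log2 fold change of -1.001 against 0.0038 over all genes. Between the fresh preparations, 10 were higher in cardiomyocytes and 12 lower (35.2% and 41.7% of all genes). With MGT against control, 8 were higher and 3 lower (17.9% and 17.7%). With shNT against MGT alone, 8 were higher and 6 lower (24.6% and 20.1%), and with shPtbp1 against shNT again 8 and 6 (16.7% and 18.1%). Neighbouring comparisons share libraries (fresh fibroblasts, control, MGT and shNT each enter 2), so their values are not independent. Scn4a and Cacng6 entered the tests only through the cardiomyocyte libraries, so the filter favoured their calls there, and both are among the 10 higher. Of the genes named here, Scn3a, Cacna1h, Cacna2d2 and Scn4b entered only through the fresh libraries and Cacna1s only through the cultured ones. The filter favoured the direction of their calls between control cultures and fresh fibroblasts in the same way. Their fold changes in that comparison are therefore given as descriptions only, though they are among the 27 called. Single libraries carried some counts: 5 were higher with MGT without MGT replicate 2, 5 were higher with shNT without shNT replicate 1, and 2 and 3 were lower with shPtbp1 without shNT replicate 1 and without shPtbp1 replicate 2.

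**Figure D1:**
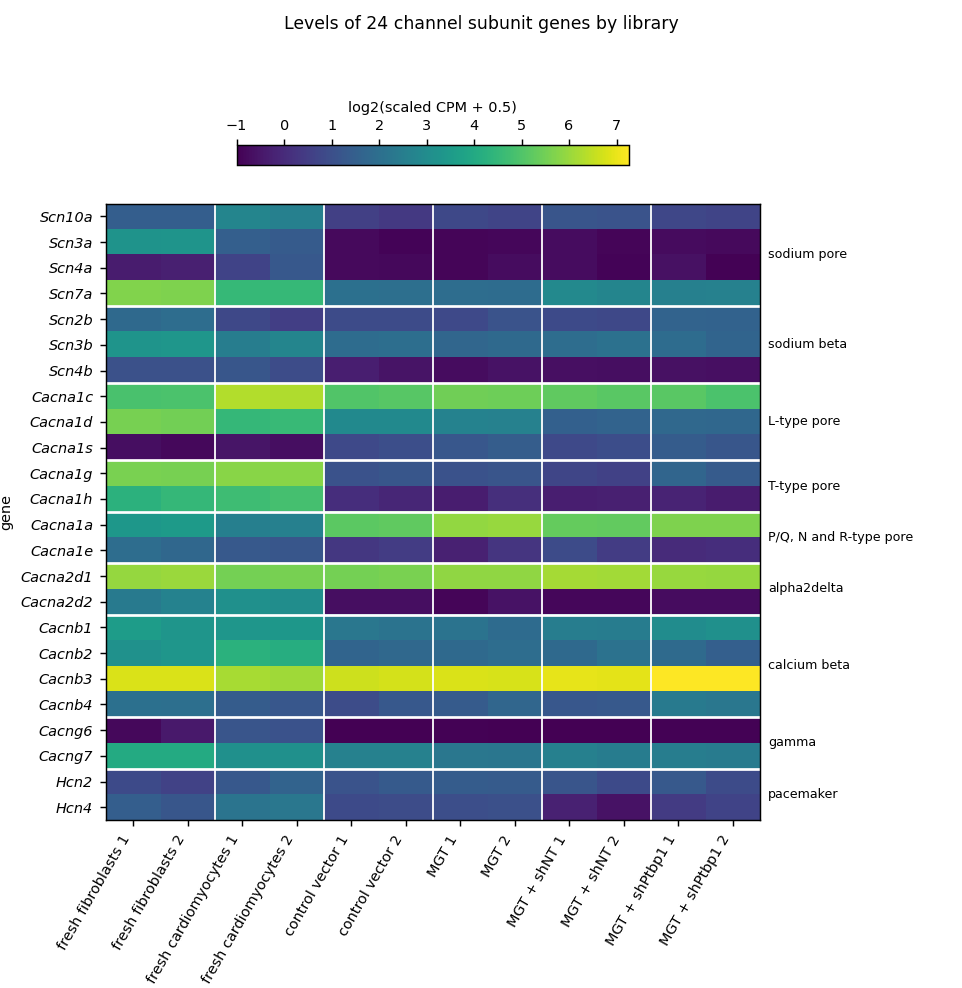
Levels of 24 of the 27 genes (rows, grouped by role) in each of the 12 libraries (columns), as log2(scaled CPM + 0.5) in colour. The fresh libraries hold the bright Scn7a, Cacna1d, Cacna1g and Cacna1h cells, and the cultured libraries hold the bright Cacna1a cells.

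Among the sodium channel pores described here, Scn7a and Scn3a were higher in fresh fibroblasts and Scn10a and Scn4a in cardiomyocytes. Scn7a encodes Nax, an atypical family member described as a sodium sensor rather than a voltage-gated channel. Its level was 51.1 and 50.7 in fresh fibroblasts, 22.8 and 22.9 in cardiomyocytes, 3.62 and 3.57 in control, 3.41 and 3.26 with MGT, 6.84 and 6.35 with shNT and 5.51 and 5.63 with shPtbp1. It was lower in cardiomyocytes (-1.14 ± 0.075, adjusted p = 6.84e-11) and fell in culture (-3.65 ± 0.075, adjusted p = 3.32e-19). Both shNT libraries lay above both MGT libraries (0.89 ± 0.075, adjusted p = 1.18e-08). With shPtbp1 it was lower than with shNT (-0.22 ± 0.075, adjusted p = 0.0268), a call lost with only the 4 libraries fitted, without shNT replicate 1, without shPtbp1 replicate 1 and without shPtbp1 replicate 2 (adjusted p of 0.0642 to 0.196). Schwann cells also express Scn7a, and the summed level of 5 Schwann cell markers was 8.68 to 8.84 in fresh fibroblasts, 4.97 to 5.41 in cardiomyocytes, 2.01 to 2.25 in control, 1.79 to 2.06 with MGT, 2.44 to 2.55 with shNT and 1.74 to 1.79 with shPtbp1. Of these, Sox10 and Foxd3 were under 1 in every library. Their part in the Scn7a values was not tested.

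Scn3a, a sodium channel of embryonic neurons, was 9.01 and 9.22 in fresh fibroblasts and 2.33 and 2.07 in cardiomyocytes. In the 8 cultured libraries it was at most 0.103 (in shNT replicate 1), and control had 7 and 3 reads. Its fold change was -1.83 ± 0.12 in cardiomyocytes (adjusted p = 1.04e-10). Scn3a entered the tests only through the fresh libraries, so its fold change in culture (-4.12 ± 0.12) is given as a description only. Scn10a, known from sensory neurons (chromosome 9, 119608456 to 119719322, minus strand, GRCm38), was highest in cardiomyocytes, at 6.22 and 5.56 against 2.29 and 2.24 in fibroblasts (1.21 ± 0.11, adjusted p = 1.55e-08). It was 0.98 and 0.79 in control, 1.24 and 1.14 with MGT (adjusted p = 0.0587), 1.78 and 1.68 with shNT and 1.19 and 1.12 with shPtbp1. The rise with shNT (0.40 ± 0.11, adjusted p = 0.00754) was lost without MGT replicate 2 and without shNT replicate 1 (adjusted p of 0.0545 to 0.0575). The fall with shPtbp1 (-0.43 ± 0.11, adjusted p = 0.00684) was lost without shNT replicate 1 (adjusted p = 0.0556). Scn4a, the skeletal muscle sodium channel, was 1.09 and 1.9 in cardiomyocytes and at most 0.326 elsewhere. It entered the tests only through the cardiomyocyte libraries, so its fold change there (1.28 ± 0.17) is given as a description only. Its fall in culture (-0.49 ± 0.17, adjusted p = 0.0132) was lost at a pseudocount of 2 and without fibroblast replicate 2 (adjusted p of 0.0632 to 0.0819). Under the level rule, Scn11a, a sodium channel of pain-sensing neurons, had 12 and 17 reads in control, 44 and 41 with MGT, 45 and 35 with shNT and 60 and 43 with shPtbp1. Scn1a, Scn8a and Scn9a stayed at or below 0.508 in every library. The sodium pore genes resemble one another in sequence, and how the counting treated reads that match more than 1 of them is unknown.

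Sodium channel beta subunits are small membrane proteins that modulate gating and adhesion. Scn2b, which links to the alpha subunit by a disulfide bond, was the one sodium channel beta gene called with shPtbp1. It was 2.57 and 2.52 with shPtbp1 and 1.3 and 1.23 with shNT, with MGT at 1.26 and 1.67 and control at 1.37 and 1.36. Both shPtbp1 libraries lay above all other cultured libraries (0.79 ± 0.13, adjusted p = 8.11e-05 against shNT). Scn2b was also lower in cardiomyocytes, at 1.22 and 0.948 against 3.01 and 3.34 (-1.22 ± 0.13, adjusted p = 5.51e-08), and fell in culture (-0.98 ± 0.13, adjusted p = 6.37e-07). Scn3b was 9.14 and 9.54 in fibroblasts, 5.19 and 6.31 in cardiomyocytes and 2.65 to 3.69 in culture, with fold changes of -0.66 ± 0.11 and -1.34 ± 0.11 (adjusted p = 2.96e-05 and 1.31e-09). Scn4b was 1.57 and 1.59 in fresh fibroblasts and 0.301 and 0.169 in control, and had no call in the other comparisons. It entered the tests only through the fresh libraries, so its fold change in control (-1.50 ± 0.14) is given as a description only.

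Of the L-type calcium channel pores, Cacna1c was higher in fresh cardiomyocytes than in fresh fibroblasts, Cacna1d was lower, and Cacna1s was higher in control cultures than in fresh fibroblasts. Cacna1c encodes Cav1.2, the pore of the cardiac L-type current (chromosome 6, 118587240 to 119196418, minus strand). RefSeq gives it 3 start sites, and the 3 windows are printed because Cacna1c is the main heart calcium channel and was higher with MGT, whose 3 factors each bind a known short motif. Each runs from 250 bases before to 50 bases after a start site on the minus strand of GRCm38.p6, 5′ to 3′, with GATA motifs in capitals.
Cacna1c, chr6:119196360-119196659: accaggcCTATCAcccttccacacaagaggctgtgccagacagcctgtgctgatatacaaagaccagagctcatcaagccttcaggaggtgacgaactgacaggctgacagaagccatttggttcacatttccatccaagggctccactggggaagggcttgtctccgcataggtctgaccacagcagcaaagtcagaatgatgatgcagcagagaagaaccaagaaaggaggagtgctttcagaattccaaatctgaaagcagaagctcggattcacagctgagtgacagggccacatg
Cacna1c, chr6:119108446-119108745: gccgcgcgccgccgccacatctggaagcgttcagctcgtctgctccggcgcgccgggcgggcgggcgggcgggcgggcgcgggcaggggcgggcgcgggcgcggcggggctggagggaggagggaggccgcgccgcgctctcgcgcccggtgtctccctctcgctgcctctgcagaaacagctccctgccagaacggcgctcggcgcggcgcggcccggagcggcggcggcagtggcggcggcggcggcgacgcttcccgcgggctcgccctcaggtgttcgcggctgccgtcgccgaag
Cacna1c, chr6:118757925-118758224: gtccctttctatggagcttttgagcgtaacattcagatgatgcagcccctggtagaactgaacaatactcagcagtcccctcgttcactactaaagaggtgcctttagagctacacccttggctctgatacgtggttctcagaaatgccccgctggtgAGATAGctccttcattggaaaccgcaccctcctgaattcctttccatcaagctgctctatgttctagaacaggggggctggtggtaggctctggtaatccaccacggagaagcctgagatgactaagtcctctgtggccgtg
Both strands were searched for the GATA motif (AGATAA or AGATAG or TGATAA or TGATAG), for the T-box motif AGGTGTGA and for the MEF2 consensus. The first window holds 1 GATA motif on the opposite strand, from position -243, the third holds 1 from position -92, and the middle one, which is 81.3% G and C, holds none. Of all 32851 promoter windows of 300 bases, 29.8% hold a GATA motif, 1.28% the T-box motif and 3.19% the MEF2 motif. Windows were found for 31 of the 43 genes, 41 in all. Of these 7 hold a GATA motif and 0 a T-box or MEF2 motif. For 5 of the 8 genes that were higher with MGT there were 10 windows, 3 with a GATA motif, and Cacna1a had no window in the table.

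Cacna1c was 78.7 and 77.8 in cardiomyocytes, 29.4 and 30.1 in fresh fibroblasts, 32.2 and 34.5 in control, 43.8 and 42.7 with MGT, 37.8 and 35.4 with shNT and 35.1 and 29.5 with shPtbp1. Cardiomyocytes were above all others (1.38 ± 0.062, adjusted p = 2.74e-13 against fibroblasts), and MGT was above every other cultured library (0.37 ± 0.062, adjusted p = 0.000124 against control). The difference of control from fresh fibroblasts was small (0.16 ± 0.062, adjusted p = 0.0213) and its call was lost with no scaling, with no filter, without fibroblast replicate 1, without fibroblast replicate 2 and without control replicate 2 (adjusted p of 0.0528 to 0.425). Cacna1c was lower with shNT than with MGT (-0.24 ± 0.062, adjusted p = 0.00424), a call lost without shNT replicate 2 (adjusted p = 0.0579). The further decrease with shPtbp1 (-0.18 ± 0.062, adjusted p = 0.0307) was lost with no filter, with only the 4 libraries fitted, without shNT replicate 1 and without shPtbp1 replicate 2 (adjusted p of 0.113 to 0.515).

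Cacna1d encodes Cav1.3, an L-type pore of the sinoatrial node and atria. It was 46.6 and 44.9 in fresh fibroblasts and 22.2 and 23 in cardiomyocytes (-1.001 ± 0.078, adjusted p = 8.12e-10). It fell in culture to 7.06 and 7.07 (-2.61 ± 0.078, adjusted p = 9.74e-17), with MGT at 5.82 and 5.72, shNT at 2.38 and 2.59 and shPtbp1 at 2.99 and 2.86. The 2 groups with a hairpin lay below the other cultured groups, and shNT was lower than MGT (-1.07 ± 0.078, adjusted p = 1.33e-09). The smaller fall with MGT (-0.27 ± 0.078, adjusted p = 0.0106) was lost without MGT replicate 2 (adjusted p = 0.0606). With shPtbp1 against shNT it was 0.20 ± 0.078, adjusted p = 0.0562, and it was called at a pseudocount of 0.1 and with a filter at 5 CPM (adjusted p of 0.0435 to 0.0444). Cacna1s, the skeletal muscle L-type pore, was at most 0.194 in the 4 fresh libraries and 1.28 and 1.48 in control. It entered the tests only through the cultured libraries, so its fold change in control (1.67 ± 0.13) is given as a description only. It was 1.86 and 2.18 with MGT, 1.28 and 1.42 with shNT and 2.16 and 1.82 with shPtbp1. Its changes were 0.42 ± 0.13, adjusted p = 0.0166 with MGT, -0.45 ± 0.13, adjusted p = 0.00933 with shNT and 0.43 ± 0.13, adjusted p = 0.0161 with shPtbp1. These 3 calls were lost, in that order, at a pseudocount of 0.1, without control replicate 1 and without MGT replicate 2 (adjusted p of 0.0755 to 0.158), at a pseudocount of 0.1, without MGT replicate 2 and without shNT replicate 1 (adjusted p of 0.0515 to 0.0998), and at a pseudocount of 0.1, without shNT replicate 1 and without shPtbp1 replicate 1 (adjusted p of 0.0741 to 0.133). An antisense gene covers 19.98% of the exon length of Cacna1s, and reads of the 2 could be mixed if strand was not used. Cacna1f, the retinal L-type pore, stayed under the level rule.

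Both T-type pores that were tested fell in culture. Cacna1g (Cav3.1) was 48.1 and 47.3 in fresh fibroblasts, 55 and 54.7 in cardiomyocytes, 1.64 and 1.82 in control, 1.64 and 1.76 with MGT, 1.16 and 1.01 with shNT and 2.76 and 2.12 with shPtbp1. Cacna1h (Cav3.2) was 19.5 and 22.2, 25.7 and 28, 0.56 and 0.429, 0.295 and 0.59, 0.308 and 0.321 and 0.394 and 0.266 in the same order. Both were high in the 2 fresh preparations and at most 2.76 in all 8 cultured libraries. The fall in control was -4.44 ± 0.1, adjusted p = 2.39e-18 for Cacna1g. Cacna1h entered the tests only through the fresh libraries, so its fold change in control (-4.42 ± 0.14) is given as a description only. In cardiomyocytes against fresh fibroblasts, Cacna1g had 0.20 ± 0.1, adjusted p = 0.0882. It was called there at a pseudocount of 2, with only the 4 libraries fitted and with edgeR (adjusted p of 1.9e-05 to 0.0211). In the same comparison Cacna1h had 0.36 ± 0.14, adjusted p = 0.0263. That call was lost at a pseudocount of 0.1 and with no filter (adjusted p of 0.142 and 0.0819). The Cacna1h call was also lost without fibroblast replicate 1 (fold change 0.27) and without cardiomyocyte replicate 2 (0.30). MGT gave no call in either gene (-0.018 ± 0.1, adjusted p = 0.917 for Cacna1g and -0.092 ± 0.14, adjusted p = 0.651 for Cacna1h). Within the low range, Cacna1g was lower with shNT than with MGT (-0.47 ± 0.1, adjusted p = 0.00102) and higher with shPtbp1 than with shNT (0.88 ± 0.1, adjusted p = 2.37e-06). Cacna1h had no call with shNT (-0.19 ± 0.14, adjusted p = 0.288) or with shPtbp1 (0.023 ± 0.14, adjusted p = 0.925). With shNT against MGT, Cacna1h was called lower without MGT replicate 1 (adjusted p = 0.0348).

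Vascular cells also express T-type channels, and all 5 endothelial markers also fell in culture. Their summed level was 2372 to 2424 in fresh fibroblasts, 2989 to 2998 in cardiomyocytes and 95.6 to 101 in control. The pericyte markers Rgs5, Kcnj8 and Abcc9 were 178, 46.6 and 273 in fresh fibroblasts and 2.52, 0.349 and 1.79 in control (means of 2 libraries), whereas the whole list of 6 smooth muscle and pericyte markers summed to 1147 to 1181 in fresh fibroblasts and 5475 to 5706 in control. The part of these cells in the fall of the T-type pores was not tested.

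Cacna1a went the other way. It encodes Cav2.1, the P/Q-type pore known from nerve terminals (chromosome 8, 84388440 to 84640246, plus strand). It was 9.89 and 10.7 in fresh fibroblasts, 5.4 and 5.53 in cardiomyocytes, 36.2 and 37.8 in control, 60.6 and 63.4 with MGT, 39.6 and 38.7 with shNT and 50.1 and 50.5 with shPtbp1. The groups did not overlap in any of the 5 comparisons. It was lower in cardiomyocytes (-0.86 ± 0.054, adjusted p = 4.31e-11), rose in culture (1.79 ± 0.054, adjusted p = 1.32e-16), rose again with MGT (0.74 ± 0.054, adjusted p = 5.53e-09), was lower with shNT (-0.66 ± 0.054, adjusted p = 9.2e-09) and higher with shPtbp1 than with shNT (0.36 ± 0.054, adjusted p = 4.67e-05). All 5 calls held in all 13 alternatives each. Of 6 neuron markers 5 were under 1 in every cultured library. The sixth, Tubb3, was 4.52 and 4.76 in fresh fibroblasts, 68.8 and 64.5 in control and 42.5 and 48 with MGT. The part of neurons in the Cacna1a values was not tested. The antisense gene over Cacna1a covers 3.81% of its exon length. Cacna1e, the R-type pore, was 3.34 and 2.88 in fresh fibroblasts and 1.98 and 1.79 in cardiomyocytes (-0.60 ± 0.16, adjusted p = 0.00232), and 0.354 to 1.35 in culture, with a fall of -1.44 ± 0.16, adjusted p = 7.36e-08 in control. It was higher with shNT (0.66 ± 0.16, adjusted p = 0.00225), a call lost without MGT replicate 1 and without shNT replicate 1 (adjusted p of 0.059 to 0.0737). It was lower with shPtbp1 (-0.63 ± 0.16, adjusted p = 0.00457), a call lost without shNT replicate 1 (adjusted p = 0.0993). Cacna1b, the N-type pore, stayed under the level rule at 0.311 to 0.912.

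Per kb of exon, which allows levels of different genes to be compared, the 10 calcium pore genes summed to 14.2 and 14.4 scaled CPM per kb in cardiomyocytes, 12.9 and 13.1 in fresh fibroblasts, 5.81 and 6.11 in control, 8.46 and 8.73 with MGT, 5.94 and 5.71 with shNT and 7 and 6.66 with shPtbp1. In fresh fibroblasts Cacna1g held 35.7% to 36.7% of the sum, Cacna1d 27.2% to 28.5% and Cacna1a 6.7% to 7.18%. In cardiomyocytes Cacna1g held 37.5% to 38.3% and Cacna1c 25.5% to 26.2%. Cacna1a held 54.2% to 54.5% in control, 62.7% to 63.6% with MGT, 58.4% to 59.3% with shNT and 62.6% to 66.5% with shPtbp1, followed in each by Cacna1c. The order of pore transcripts thus differed between fresh and cultured fibroblasts, with T-type and Cacna1d transcripts first in the one and Cacna1a and Cacna1c first in the other. Lengths are the union of all annotated exons, so a gene with many unused exons is understated.

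**Figure D2:**
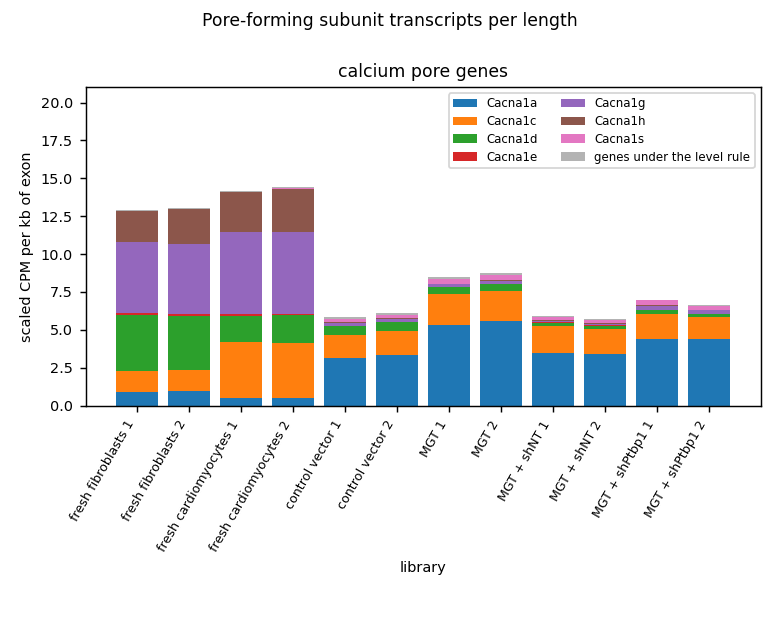
Scaled CPM per kb of exon of the calcium pore genes, stacked, 1 bar per library. Cacna1a is the largest calcium part in every cultured library, at 54.2% to 66.5% of the sum.

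Among the accessory calcium channel subunits, Cacnb3 had the highest level per kb in each of the 6 groups. Cacnb3, a beta subunit that carries pores to the membrane, stood at 27.5 scaled CPM per kb in fresh fibroblasts and 17.5 in cardiomyocytes. Its scaled CPM were 109.6 and 111 in fresh fibroblasts, 72 and 68.1 in cardiomyocytes, 97.9 and 106 in control, 111 and 109 with MGT, 124 and 122 with shNT and 150.2 and 153 with shPtbp1. Cardiomyocytes were lowest (-0.65 ± 0.04, adjusted p = 2.99e-11) and shPtbp1 highest (0.30 ± 0.04, adjusted p = 1.19e-05 against shNT), and shNT was above MGT (0.16 ± 0.04, adjusted p = 0.00336). The small changes in control (-0.12 ± 0.04, adjusted p = 0.0126) and with MGT (0.11 ± 0.04, adjusted p = 0.0348) were lost in 4 and 6 of 13 alternatives, the first with upper-quartile scaling, with edgeR, without fibroblast replicate 2 and without control replicate 1 (adjusted p of 0.0673 to 0.204) and the second with upper-quartile scaling, with no filter, with only the 4 libraries fitted, without control replicate 1, without MGT replicate 1 and without MGT replicate 2 (adjusted p of 0.074 to 0.332).

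Cacnb2, the main beta subunit of heart muscle, was 19.1 and 17.4 in cardiomyocytes, 8.58 and 9.56 in fresh fibroblasts and 2.33 to 3.82 in culture. It was the 1 beta gene that was higher in cardiomyocytes (0.97 ± 0.12, adjusted p = 7.66e-07). It fell in control (-1.52 ± 0.12, adjusted p = 6.54e-10) and had no call with MGT (0.14 ± 0.12, adjusted p = 0.392) or shNT (0.10 ± 0.12, adjusted p = 0.564). With shPtbp1 it was -0.29 ± 0.12, adjusted p = 0.0726, and it was called without shNT replicate 1 and without shPtbp1 replicate 1 (adjusted p of 0.00997 to 0.0336). Cacnb4, a beta subunit best known from brain, was 4.8 and 4.39 with shPtbp1 and 1.85 and 1.98 with shNT. Both shPtbp1 libraries lay above every other library of the series, and the increase over shNT was 1.08 ± 0.14, adjusted p = 5.98e-06. Cacnb4 was 3.67 and 3.57 in fresh fibroblasts, 2.16 and 1.84 in cardiomyocytes, 1.38 and 1.91 in control and 2.08 and 2.83 with MGT. It was lower in cardiomyocytes (-0.72 ± 0.14, adjusted p = 9.26e-05) and in control (-0.95 ± 0.14, adjusted p = 2.5e-06), and its rise with MGT (0.46 ± 0.14, adjusted p = 0.0129) was lost with no filter, with only the 4 libraries fitted, without control replicate 1 and without MGT replicate 2 (adjusted p of 0.0679 to 0.222). An unstranded count would mix it with a non-coding gene over 15.99% of its exon length. Cacnb1, the beta subunit of skeletal muscle, was 4.31 and 3.95 in control, 3.89 and 3.17 with MGT, 5.22 and 4.99 with shNT and 7.69 and 8.28 with shPtbp1. It was higher with shNT than with MGT (0.48 ± 0.11, adjusted p = 0.00105) and higher again with shPtbp1 (0.60 ± 0.11, adjusted p = 0.000214). It fell in culture from 11.3 and 9.34 (-1.22 ± 0.11, adjusted p = 1.91e-09). Of the 4 calcium channel beta genes 3 were called higher with shPtbp1 and 0 lower, where 16.7% and 18.1% of all genes tested were called.

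Cacna2d1, the alpha2delta subunit of the cardiac L-type channel, was 61.3 and 65.2 in fresh fibroblasts, 45.9 and 47 in cardiomyocytes, 45.5 and 47.6 in control, 58.7 and 59.5 with MGT, 71.2 and 68.4 with shNT and 62.6 and 62.2 with shPtbp1. It was lower in cardiomyocytes (-0.44 ± 0.042, adjusted p = 1.75e-08) and in control (-0.44 ± 0.042, adjusted p = 1.04e-08), and higher with MGT (0.34 ± 0.042, adjusted p = 4.25e-06) and with shNT (0.24 ± 0.042, adjusted p = 0.00014). The decrease with shPtbp1 (-0.16 ± 0.042, adjusted p = 0.00624) was lost without shNT replicate 1 (adjusted p = 0.0828). Cacna2d2 was 8.29 and 7.87 in cardiomyocytes and 4.68 and 5.84 in fresh fibroblasts (0.58 ± 0.14, adjusted p = 0.00073), and at most 0.167 in culture. It entered the tests only through the fresh libraries, so its fold change in control (-3.21 ± 0.14) is given as a description only. Cacna2d3 and Cacna2d4 were under the level rule.

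Of 8 gamma subunit genes 2 met the level rule. Cacng7, of a group that also serves glutamate receptors, was 16.1 and 16.1 in fresh fibroblasts, 8.35 and 8.44 in cardiomyocytes (-0.90 ± 0.084, adjusted p = 1.1e-08) and 5.71 and 5.76 in control (-1.41 ± 0.084, adjusted p = 5.38e-12). It was lower with MGT, at 4.3 and 4.2 (-0.39 ± 0.084, adjusted p = 0.00116), and at 5.56 and 5.01 with shNT, a rise (0.28 ± 0.084, adjusted p = 0.00993) that was lost without MGT replicate 2 and without shNT replicate 1 (adjusted p of 0.0522 to 0.116). Cacng6 was 1.75 and 1.61 in cardiomyocytes and 0.0627 and 0.248 in fibroblasts. It too entered the tests only through the cardiomyocyte libraries, so its fold change there (1.75 ± 0.15) is given as a description only. In control it had 1 and 0 reads against 6 and 19 in fresh fibroblasts, and that call (adjusted p = 0.027) was lost at a pseudocount of 2, with only the 4 libraries fitted, without fibroblast replicate 2, without control replicate 1 and without control replicate 2 (adjusted p of 0.0631 to 0.341). The other gamma genes were at most 0.575, with Cacng1, Cacng3, Cacng4 and Cacng5 at 4 to 55 reads in each fresh fibroblast library and 0 to 4 in each cultured one.

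The pacemaker genes were low everywhere, and each had its own pattern. Hcn4, the main pacemaker channel of the sinoatrial node (chromosome 9, 58823412 to 58863175, plus strand), was 3.98 and 4.3 in cardiomyocytes and 2.3 and 1.81 in fresh fibroblasts (0.87 ± 0.14, adjusted p = 1.73e-05). It was 1.3 and 1.4 in control, 1.46 and 1.51 with MGT, 0.353 and 0.16 with shNT and 0.839 and 1.09 with shPtbp1. The shNT libraries, with 31 and 14 reads, were the 2 lowest of the series. Hcn4 was therefore lower with shNT than with MGT (-1.41 ± 0.14, adjusted p = 1.35e-07) and higher with shPtbp1 than with shNT (0.96 ± 0.14, adjusted p = 3.09e-05), while shPtbp1 stayed below MGT in both libraries. MGT gave no call (0.10 ± 0.14, adjusted p = 0.611). The fall in culture (-0.46 ± 0.14, adjusted p = 0.00535) was lost without fibroblast replicate 1 (adjusted p = 0.0861).

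Hcn2, the ventricular member, was 1.9 and 2.61 in cardiomyocytes and 1.33 and 1.06 in fresh fibroblasts (0.70 ± 0.16, adjusted p = 0.000694). It was 1.66 and 2.06 in control, where its rise (0.48 ± 0.16, adjusted p = 0.0101) was lost with no filter, without fibroblast replicate 2 and without control replicate 2 (adjusted p of 0.0504 to 0.104). It was 2.12 and 2.12 with MGT, 1.76 and 1.3 with shNT and 1.97 and 1.33 with shPtbp1. None of these 3 was called against its comparison group (0.16 ± 0.16, adjusted p = 0.483 with MGT, -0.38 ± 0.16, adjusted p = 0.0643 with shNT and 0.08 ± 0.16, adjusted p = 0.75 with shPtbp1). With shNT it was called lower with only the 4 libraries fitted and without shNT replicate 1 (adjusted p of 0.0327 to 0.0443). Hcn3 was at most 0.305.

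**Figure D3:**
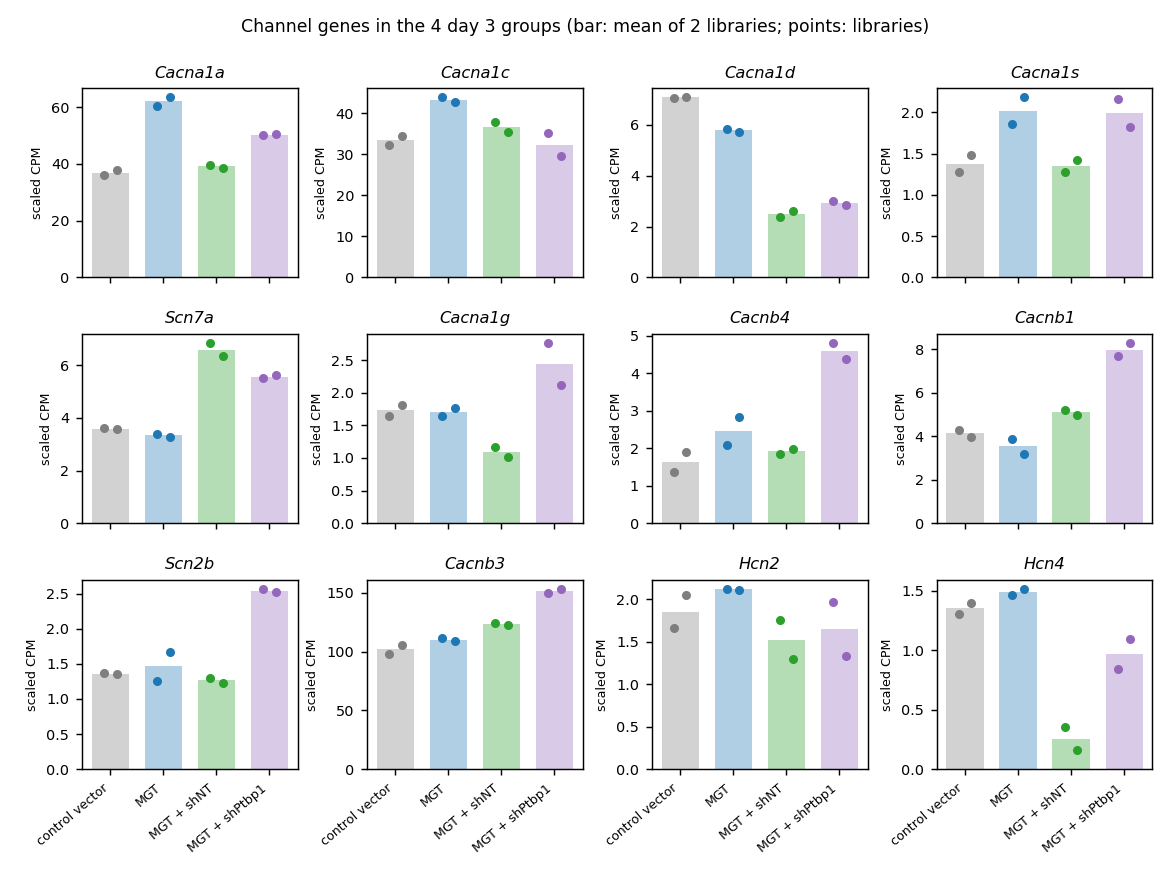
Scaled CPM of 12 genes in the 4 day 3 groups, with a bar for the mean of 2 libraries and a point for each library. Cacna1a is higher with MGT than in control, Hcn4 is lowest with shNT, and Cacnb4, Cacnb1 and Scn2b are highest with shPtbp1.

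Other quantities differed between shNT and MGT libraries. Mef2c was 476 and 469.8 with shNT and 720.1 and 761 with MGT, and the summed level of the 3 macrophage markers in the table was 353 to 370.0 with shNT, 299 in both libraries with shPtbp1 and 971 to 983 with MGT. The part of either in the channel values was not tested. Where shPtbp1 against shNT was higher after a fall with shNT (Hcn4, Cacna1g, Cacna1a and Cacna1s), shPtbp1 stood at 0.839 and 1.09, 2.76 and 2.12, 50.1 and 50.5 and 2.16 and 1.82 and MGT alone at 1.46 and 1.51, 1.64 and 1.76, 60.6 and 63.4 and 1.86 and 2.18. Cacnb4, Cacnb1, Cacnb3 and Scn2b with shPtbp1 lay above both MGT and shNT in all libraries.

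**Figure D4:**
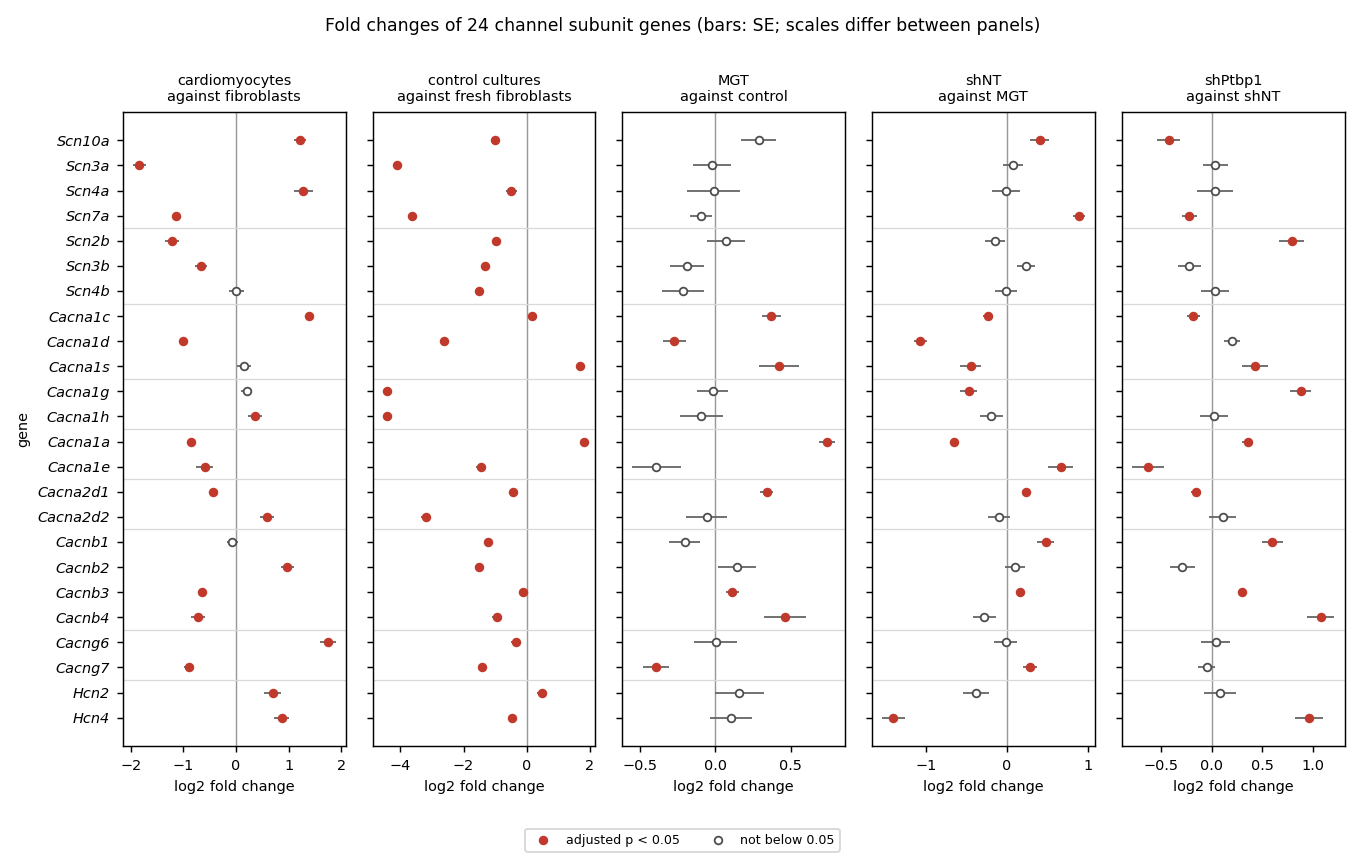
Log2 fold change with its standard error for 24 of the 27 genes (rows) in the 5 comparisons (panels, each with its own scale). Filled points have an adjusted p under 0.05 by limma. Control cultures against fresh fibroblasts ranged from -4.44 for Cacna1g to 1.79 for Cacna1a.

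A list of 37 genes for proteins that bind, anchor or regulate these channels was read the same way, and 34 were tested. In cardiomyocytes 15 were higher and 12 lower (35.2% and 41.7% of all genes), and in control cultures 17 and 14 (43.5% and 43.4%). With MGT 14 were higher and 5 lower (17.9% and 17.7%), with shNT 9 and 7 (24.6% and 20.1%), and with shPtbp1 7 and 4 (16.7% and 18.1%). The median log2 fold change with MGT was 0.089, against -0.0077 over all genes. Of 13 sodium channel partners 8 were higher in cardiomyocytes and 3 lower (35.2% and 41.7% of all genes). Those higher included the caveolin Cav3, plakophilin Pkp2 and the fibroblast growth factor homologous factors Fgf12 and Fgf13, with log2 fold changes of 3.34, 3.19, 2.02 and 1.90. With MGT 3 of them were higher and 4 lower (17.9% and 17.7% of all genes), among them the ubiquitin ligase Nedd4l (0.63), Fgf12 (0.57) and ankyrin Ank2 (-0.30).

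Of 17 calcium channel partners 8 were higher with MGT and 1 lower (17.9% and 17.7% of all genes). Rrad, a small GTPase that restrains L-type channels through their beta subunit, was 57.3 and 62.1 in control and 135 and 128 with MGT, and reached 196 and 209 with shPtbp1, with log2 fold changes of 1.13 with MGT and 0.50 with shPtbp1 against shNT. Its relative Gem fell in culture from 129 and 132 to 3.74 and 3.57 (-4.98), and junctophilin Jph2, which holds L-type channels near the calcium store, rose (2.72). Of 7 pacemaker partners 4 were tested. The nodal transcription factor Tbx3 fell in culture from 35.8 and 36.8 to 1.71 and 2.21 (-3.91). The sodium leak channel Nalcn was higher with MGT (0.55) and lower with shNT (-0.95), and the nodal factor Shox2 was higher with MGT (0.46). Pex5l, Kcne2 and Isl1 were under the level rule.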

How the data were processed

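RNA of 12 libraries was measured with a stranded mRNA kit. Values were deposited as 1 table, with CPM per library for 23423 genes. The notes of the submitters name FastQC, TopHat2 2.1.0, HTSeq 0.6.1p1 and the mm10 build. For the counting, neither annotation nor strand setting is given in the sources used here. The deposited CPM were whole multiples of 1 read (0.0106 to 0.0203 CPM) within 0.1 reads in 100% of values, so whole reads were recovered. The tests took the 13977 genes that reached 1 CPM in 2 or more libraries. Each library was divided by its median-of-ratios factor, between 0.966 and 1.06, and log2(scaled CPM + 0.5) was fitted across all genes with limma 3.58.1 in R 4.3.3 (eBayes with trend, 1 mean per group, 6 residual degrees of freedom, two-sided, Benjamini-Hochberg adjustment, threshold 0.05). The spread is pooled over groups of 2, for which an exact permutation test cannot go below p = 0.333. The procedure was tested on simulated data.

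The alternatives tried were CPM without a factor, an upper-quartile factor, a pseudocount of 0.1 or 2, a filter at 5 CPM, all genes unfiltered, a fit to only the 4 libraries compared, a replicate block, a fit without each replicate in turn, and edgeR 4.0.16 (quasi-likelihood) on the recovered reads. A left-out replicate leaves 1 library, assumed to vary like the other groups. Fold changes are given for called genes and always for Cacna1c, Cacna1d, Cacna1g, Cacna1h, Cacna2d1, Cacnb2, Hcn2 and Hcn4. Of the partner list, up to 4 genes per comparison were named for large changes, but not always those with the largest. Among those left out were Rem2 (mean 0.144 in fresh fibroblasts and 2.66 in cardiomyocytes) and Akap5 (14.3 with shNT and 9.17 with shPtbp1). Others were Stac2 (mean 4.33 in control and 6.99 with MGT) and Ank3 (11.9 with MGT and 18.6 with shNT). Fgf13, Ank2 and Shox2, with some values of the others, were named after their values were seen. The genes and lists were chosen with earlier results of these data known. Positions and exon lengths come from GENCODE M21 (GRCm38, the mm10 build), and promoter windows from RefSeq (GRCm38.p6). Splicing was not analysed here. Some of the genes counted are not reported here by name.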

Additional observations from a re-analysis of the deposited data

How the results depend on the processing

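The counts of called channel genes were the same under the replicate block in all 5 comparisons (8 higher and 3 lower with MGT, 10 and 12 in cardiomyocytes, 6 and 21 in control cultures, 8 and 6 in each hairpin comparison). The replicate deviations of the groups compared correlated at -0.027 to 0.16, and the labels do not tie the numbers to a shared batch, so no pairing was assumed. With edgeR no count moved by more than 1 gene. A filter at 5 CPM, which tests fewer genes, left 6 higher in cardiomyocytes, 3 higher in control cultures, 5 higher with MGT and 5 higher with shPtbp1. No filter, which tests more genes, gave 20 lower in cardiomyocytes. Leaving out each replicate gave 5 to 8 higher with MGT, 5 to 8 higher with shNT and 2 to 7 lower with shPtbp1. Of 1306 fold changes of single genes under the alternatives, 1220 kept their side of the threshold and direction, 67 lost and 10 gained a call, and 9 changed sign, none of them called. Over the left-out replicates these ran, with MGT, from -0.076 to 0.041 for Cacna1g and -0.32 to 0.14 for Cacna1h. With shNT they ran from -0.42 to 0.035 for Cacna1h and -0.041 to 0.23 for Cacnb2, and with shPtbp1 from -0.088 to 0.13 for Cacna1h and -0.14 to 0.30 for Hcn2. The cause was not tested. Without scaling the median gene in control cultures moved from 0.0038 to -0.10, and the small Cacna1c rise there lost its call. Genes near 1 CPM, such as Hcn4 with shNT (31 and 14 reads), rest on few reads.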
